A study of Xenopus laevis with 6 samples.

Results

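The enzymes described act in glycolysis between glucose 6-phosphate and lactate: gpi, aldoa, tpi1, gapdh, pgk1, pgam1, eno1, pkm, ldha and ldhb. Phosphofructokinase, which acts between gpi and aldoa, is not among them and is taken up further below. A probe set is the group of short probes that reports 1 transcript on an Affymetrix array. All 10 genes were found by the symbol in the platform annotation, with 19 probe sets of the array's 15491. Probe sets with 1 symbol name 6504 genes, after symbols were matched to RefSeq and copies joined. Transcript signals were measured in total RNA of Xenopus laevis animal pole explants, tissue from the top of the frog blastula that forms epidermis when cultured alone. The explants were cut at stage 8 and kept until siblings of the donor embryos were at stage 20. In the first group, 2 samples came from embryos injected with NICD, the Notch intracellular domain, which enters the nucleus and switches on Notch target genes. The other group, 4 samples, was untreated, and the design text calls its explants pooled. The labels give no strain, no dose of NICD and no sample with a control injection, so NICD and the injection itself cannot be told apart.

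Glycolysis breaks glucose down to pyruvate in the cytosol. The early steps spend ATP to phosphorylate the sugar, aldolase splits it, and the later steps return ATP and reduce NAD+. Lactate dehydrogenase then restores NAD+ by turning pyruvate into lactate, while mitochondria can oxidise the pyruvate instead. The early frog embryo draws its fuel from stores laid down in the egg, among them yolk and glycogen. Symbols ending in .L and .S are the related copies (homeologs) that this species carries of many genes; because the copies resemble each other, the other copy may add to a signal.

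The arrays were alike in overall signal, with medians between 155.6 (NICD 2) and 178.9 (untreated 3). They were processed on 2 days, NICD 1 with untreated 1 and 2 on day 1, and NICD 2 with untreated 3 and 4 on day 2. Fluidics module 4 handled both NICD arrays and modules 1 and 2 the untreated ones, so module and NICD cannot be told apart. Passing the filter on low signals, which 10368 of 15491 probe sets and 16 of 21 neural progenitor symbols did, does not show a tissue type. Of the epidermal gene symbols on the array, 19 of 19 passed it. Of these, 13 were lower in NICD explants (7 without NICD 2) and 1 was higher, epcam.L, an adhesion protein of epithelia (log2 change 0.78; adjusted p = 0.0371 in limma; 0 higher without NICD 2 or untreated 1, 2 or 3, with no filter or with no trend). The list's summed signal was 53002 to 56752 in NICD arrays and 82141 to 122919 in untreated arrays. A large part of the NICD sums came from epcam.L (15642 and 23962.5) and epcam.S (9988 and 11423), which did not fall. In the multiciliated list tubb4b.L (13888 and 12111), and in the ionocyte list atp6v1a.L (1120 and 1138), gave a large part of the NICD sums. Neither passed the test used below. The summed signal of 16 multiciliated cell symbols was 15591 to 18847 in NICD and 36206 to 47936 in untreated arrays. That of 10 ionocyte symbols was 1689 to 1912 and 11604 to 15338. For 7 goblet and small secretory cell symbols it was 2496 to 5060 (NICD) and 27065 to 40152 (untreated), and for 21 neural progenitor symbols 26004 to 26038 and 3009 to 3854. In untreated arrays itln1.L (18923 to 32144) gave a large part of the secretory sums. In NICD arrays gmnn.S (4003 and 6592) and gmnn.L (4308 and 4924) gave a large part of the neural sums. The muscle and blood list was meant to mark tissues rich in glycolytic enzymes or red cells. For its 19 symbols the summed signal was 3439 to 4380 in NICD and 4016 to 4636 in untreated arrays. A large part came from the creatine kinase ckb.L (1844 and 2969 in NICD, 1786 to 2320 in untreated arrays). That sum therefore says little on muscle or red cells. Median log2 changes of symbols past the filter were -1.22 (epidermal), -2.41 (multiciliated), -3.15 (ionocyte), -1.62 (secretory), 2.81 (neural progenitor) and -0.06 (muscle and blood). By the test used below, 12 of 14 multiciliated, 9 of 10 ionocyte and 3 of 5 secretory symbols tested were lower and 0 higher. Higher were 12 of 16 neural progenitor symbols and 11 of 13 Notch targets, with 0 lower. Of all tested probe sets 16.2% were lower and 15.3% higher, the shares to set beside these counts and the epidermal ones. A symbol can pass the filter through the 2 NICD arrays alone, as hes5.1.L did (14.6 to 22.1 in untreated arrays). The filter thus favours higher calls in the neural and Notch lists. Without NICD 1, 12 neural progenitor symbols and 6 Notch targets passed it. Of 9 muscle and blood symbols tested, ckm.L (log2 change -1.72) and tnni2.S (-1.31) were lower and 0 were higher. The share that was lower is near the 16.2% of the array. No marker of these lists had a signal of 0 on any array. The part of these shifts in cell types in the values below was not tested. In whole explants, fewer cells of a type and less RNA per cell cannot be told apart.

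The glycolytic enzymes from aldolase to pyruvate kinase were mostly higher in NICD explants. Probe sets of 5 enzymes rose: aldoa.L, tpi1.S, pgk1, eno1.L, eno1.S and pkm.S, by 0.68 to 1.49 on the log2 scale. None fell. Glucose phosphate isomerase, gapdh.L and the lactate dehydrogenases did not pass the test, and phosphoglycerate mutase was too dim to be tested. Of 17 probe sets tested, 8 rose (47.1%) and 9 did not pass, whereas 15.3% of all 10368 probe sets tested on the array rose. At an unadjusted p under 0.05 in limma 11 were higher and 0 lower. The array's share at that threshold was not taken, and the 15.3% does not stand in for it. Probe sets b, c and d of tpi1.S report the same gene. With 1 probe set per symbol, 6 of 14 rose, and the array's share was not taken on that basis. The median log2 change was 0.68 over the 17 and 0.05 over all tested probe sets. Within the days the medians were 0.81 (day 1) and 0.87 (day 2), against 0.08 and 0.02 over all tested probe sets.

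**Figure D1:**
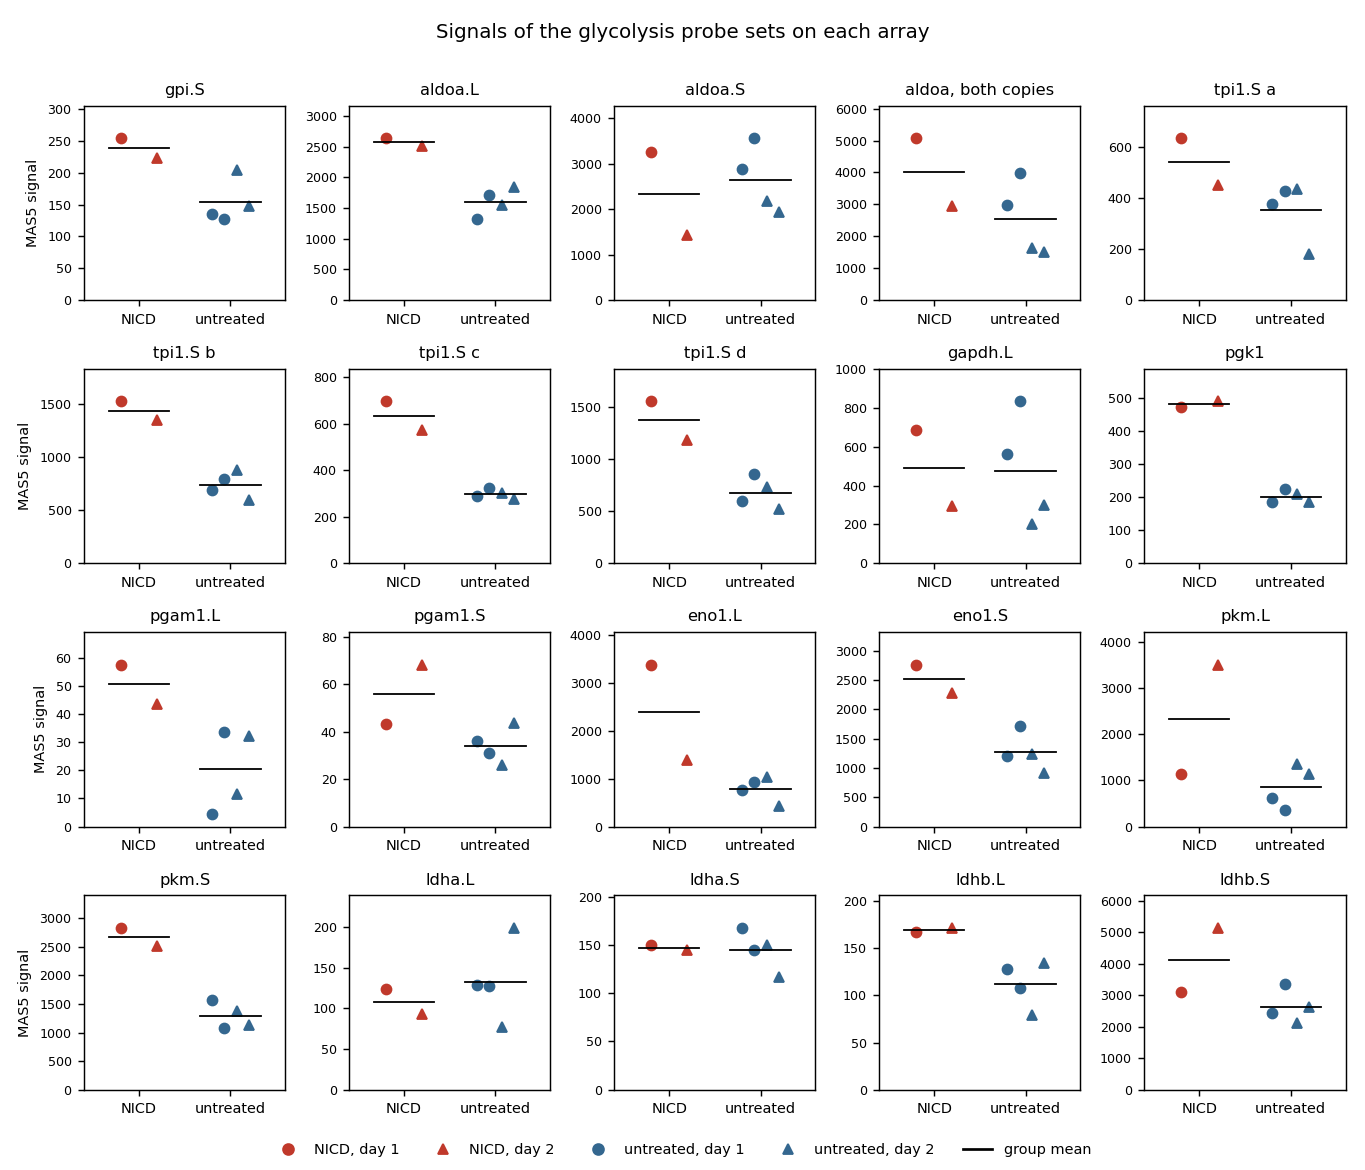
MAS5 signal (linear, vertical axes from 0) of each glycolysis probe set on each array, with NICD left and untreated right, circles for day 1, triangles for day 2 and bars for group means. In 12 of the 19 panels with 1 symbol both NICD arrays lie above all untreated arrays; the panel for both aldoa copies is a probe set with 2 symbols, which was not counted.

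Phosphoglucose isomerase, encoded by gpi, turns glucose 6-phosphate into fructose 6-phosphate. The gpi.S signal was 255 and 224 in NICD 1 and 2, against 136, 127, 205 and 148 in untreated 1 to 4. Both NICD arrays lay above the untreated ones, with untreated 3 the nearest. The log2 change, taken on the log2(signal + 32) scale as are all changes below, was 0.56 ± 0.24 (SE) and did not pass the test (adjusted p = 0.105 in limma). That scale understates the changes of low signals.

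Aldolase cleaves fructose 1,6-bisphosphate into a pair of 3-carbon sugars. The aldoa.L signal was 2642 and 2519 in NICD explants and 1319, 1710.4, 1558 and 1836 in untreated explants. Both NICD values were above the untreated range, and aldoa.L rose by 0.68 ± 0.22 (SE; adjusted p = 0.0349 in limma). This call is the least firm of the 8: it ended without either NICD array and without untreated 1, 2 or 3, with adjusted p up to 0.135. Its copy aldoa.S read 3246 and 1433 in NICD explants, against 2869, 3558, 2169.7 and 1925 in untreated explants. Here the groups overlapped, and the day 2 arrays lay lower than the day 1 arrays within each group. The log2 change of aldoa.S was -0.24 ± 0.35 (SE; adjusted p = 0.637 in limma), with 0.02 on day 1 and -0.50 on day 2. A further probe set is annotated to both aldoa copies and was left out of all counts. It gave 5076 and 2943 in NICD explants, against 2976, 3984, 1636 and 1514 in untreated explants. Its log2 change was 0.72 ± 0.40 (SE; adjusted p = 0.195 in limma), and it passed with the day as a block (adjusted p = 0.0119 in limma).

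Triose phosphate isomerase, tpi1, interconverts the sugars that aldolase makes, so that both can go on through the pathway. The array holds probe sets a, b, c and d for tpi1.S. By their identifiers b, c and d share a target and are not independent, while a has another. Probe sets b and d carry the platform's suffixes for probes that match more than 1 transcript. Probe set c gave 695 and 571 in NICD explants and 288, 322, 300.2 and 277 in untreated explants. The untreated arrays lay close together and far below both NICD arrays. It rose by 1.01 ± 0.21 (SE; adjusted p = 0.00536 in limma). Probe set b gave 1522.5 and 1345 in NICD explants and 688, 789, 874 and 591 in untreated explants, a log2 change of 0.94 ± 0.23 (SE). Probe set d gave 1555 and 1189 in NICD explants and 600.2, 856, 731 and 522 in untreated explants, a log2 change of 1.00 ± 0.26 (SE). Both passed the test (adjusted p = 0.0114 for b and 0.0145 for d in limma), again with no overlap between the groups. Probe set a gave 635 and 451 in NICD explants and 376, 429, 435 and 179 in untreated explants. Its NICD 2 value stood just above untreated 3, untreated 4 was low, and its change of 0.62 ± 0.34 (SE) did not pass (adjusted p = 0.195 in limma).

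Glyceraldehyde 3-phosphate dehydrogenase, gapdh, makes the NADH of the pathway and is often used as a loading standard. The gapdh.L signal was 686 and 295 in NICD 1 and 2, against 560, 833, 200 and 302 in untreated 1 to 4. The groups overlapped and the arrays sorted by day: the lowest day 1 value was 560 (untreated 1) and the highest day 2 value 302 (untreated 4). The NICD change was 0.12 ± 0.50 (SE; adjusted p = 0.880 in limma), with a 95% interval from -0.99 to 1.23 and changes of 0.004 on day 1 and 0.23 on day 2. In the fit with day and NICD, day 2 differed from day 1 by -1.29 (adjusted p = 0.0321 in limma). The array's own gapdh control at the 3' end, which is not counted among the 19, gave 880.3 and 473 in NICD explants, against 845, 738, 420 and 370 in untreated explants, and sorted by day too. The 3' to 5' ratio of that control, a measure of RNA quality and labelling, was 4.21 and 2.98 in NICD explants, against 3.42, 3.03, 2.70 and 3.54 in untreated explants. Only NICD 1 stood above the untreated range of that ratio, and its part in the other values was not tested.

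Phosphoglycerate kinase, pgk1, carries out the first step that returns ATP. The pgk1 signal was 474 and 491 in NICD explants, against 185, 226, 209 and 187 in untreated explants. Each group was tight, with a mean of 482 ± 12.0 in NICD (SD, n = 2) and 202 ± 19.7 in untreated explants (SD, n = 4). It rose by 1.14 ± 0.21 (SE; adjusted p = 0.00265 in limma), the smallest adjusted p of the 17, by 1.097 on day 1 and 1.19 on day 2. The platform and the RefSeq table give this gene without a copy suffix, apart from pgk1.L.

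Phosphoglycerate mutase, pgam1, moves the phosphate group along the sugar acid. Both of its probe sets were dim, below the 40th percentile of the array on all 6 arrays, and so were not tested. The pgam1.L signal was 57.6 and 43.6 in NICD explants, against 4.6, 33.6, 11.6 and 32.2 in untreated explants. The pgam1.S signal was 43.1 and 68.3 in NICD explants, against 36, 31, 26.1 and 43.6 in untreated explants. With no filter on low values their log2 changes were 0.69 and 0.40, and neither passed (adjusted p = 0.106 and 0.239 in limma).

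Enolase, eno1, forms phosphoenolpyruvate. The eno1.L signal was 3386 in NICD 1 and 1386.5 in NICD 2, against 763, 932.5, 1043 and 424 in untreated explants. Both NICD arrays lay above the untreated range, but NICD 1 far above NICD 2. The log2 change was 1.49 ± 0.41 (SE; adjusted p = 0.0192 in limma), the largest of the 17, with 1.96 on day 1 and 1.02 on day 2. Without NICD 1 the change was 0.86 and did not pass (adjusted p = 0.205 in limma). The eno1.S signal was 2759.6 and 2284 in NICD explants and 1202, 1712, 1229 and 905 in untreated explants. The NICD arrays lay close together above the untreated ones, and eno1.S rose by 1.01 ± 0.27 (SE; adjusted p = 0.0160 in limma), a call that ended without either NICD array.

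Pyruvate kinase, pkm, makes pyruvate and ATP in the last step before lactate. The pkm.S signal was 2828 and 2512.5 in NICD explants, against 1560.2, 1083, 1378 and 1127 in untreated explants. There was no overlap, and pkm.S rose by 1.05 ± 0.23 (SE; adjusted p = 0.00633 in limma), by 1.102 on day 1 and 0.99 on day 2. The pkm.L signal was 1138 in NICD 1 and 3507 in NICD 2, against 607, 368, 1344 and 1128 in untreated 1 to 4. Across all arrays the groups overlapped, because the day 1 arrays were low and the day 2 arrays high in both groups; within each day the NICD array was the highest. The change of pkm.L was 1.35 ± 0.53 (SE) and did not pass (adjusted p = 0.0804 in limma), whereas with the day as a block it did (adjusted p = 0.00131 in limma), with 1.21 on day 1 and 1.49 on day 2. Day 2 differed from day 1 by 1.41 for pkm.L in that fit (adjusted p = 0.0256 in limma), opposite in sign to gapdh.L. Of the 17 probe sets, gapdh.L and pkm.L differed between days, and 1.90% of all tested probe sets did.

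Lactate dehydrogenase exists as the ldha type, known from muscle in vertebrates, and the ldhb type, known from heart. The ldha.S signal was 149.6 and 144 in NICD explants, against 168, 145, 149.8 and 117 in untreated explants. The ldha.L signal was 123 and 93.0 in NICD explants, against 128, 127, 76.6 and 199 in untreated explants. The NICD arrays of both lay inside the untreated range, with log2 changes of 0.03 ± 0.23 for ldha.S (SE; 95% interval from -0.48 to 0.53; adjusted p = 0.941 in limma) and -0.19 ± 0.30 for ldha.L (SE; from -0.87 to 0.49; adjusted p = 0.668). The ldhb.S signal was 3095 in NICD 1 and 5145 in NICD 2, against 2424, 3376, 2110.1 and 2630.4 in untreated explants. NICD 1 lay inside the untreated range and NICD 2 above it. Its change of 0.61 ± 0.27 (SE) did not pass (adjusted p = 0.108 in limma), with 0.11 on day 1 and 1.116 on day 2; without NICD 1 the change was 0.98 and passed (adjusted p = 0.0467 in limma). The ldhb.L signal was 167 and 171.5 in NICD explants, against 128, 108, 79.1 and 135 in untreated explants. Both NICD values were above the untreated range, and the change of 0.50 ± 0.24 (SE) did not pass (adjusted p = 0.153 in limma).

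**Figure D2:**
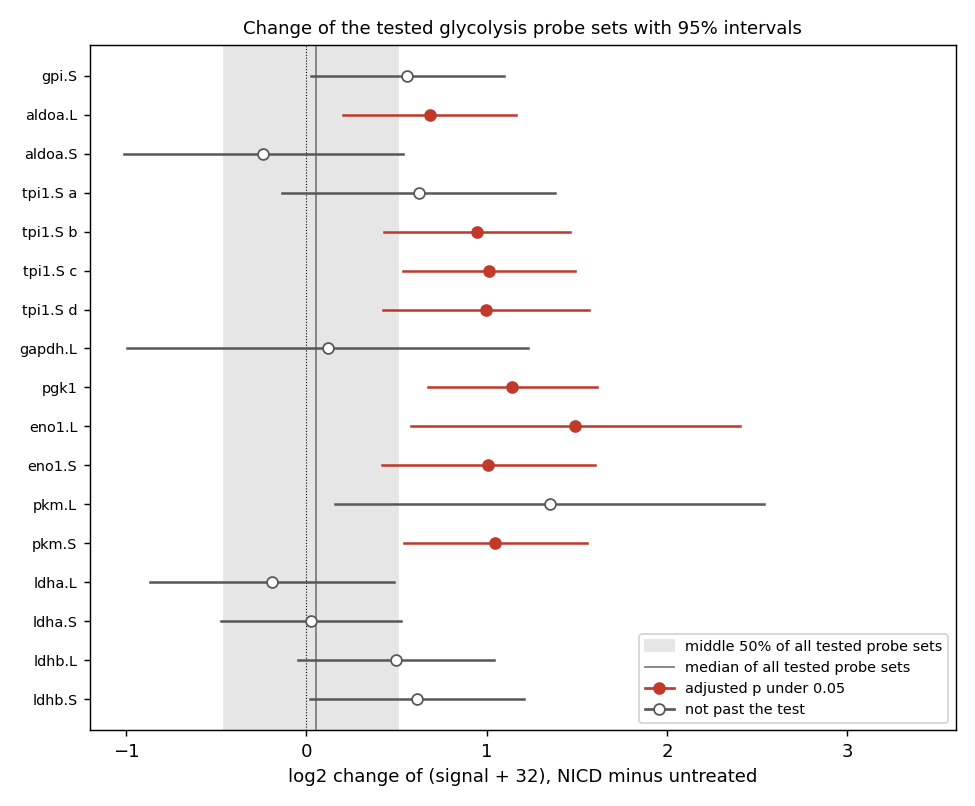
Log2 change of (signal + 32), NICD minus untreated, of the 17 tested glycolysis probe sets in pathway order from top to bottom, with 95% intervals from limma; filled red points passed an adjusted p under 0.05. The grey band holds the middle 50% of all 10368 tested probe sets. The 8 red points lie between 0.68 and 1.49, and gapdh.L, pkm.L and eno1.L have the widest intervals.

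Both NICD arrays lay above all untreated arrays for 11 of the 17 tested probe sets (64.7%) and below them for 0, against 26.7% above and 24.2% below among all tested probe sets. The change was above 0 on both days for 14 of the 17, against 41.6% of all tested probe sets. The 8 probe sets that rose did so by 0.80 to 1.96 on day 1 and by 0.57 to 1.19 on day 2. As the 8 were called on these same arrays, changes above 0 on each day follow in part from that choice. With the day as a block the 8 and pkm.L passed, 9 of 17, and 0 were lower, against 20.4% higher and 19.8% lower of all tested probe sets. Of the 17, 5 were past the test and at least 2-fold higher, against 9.80% of all tested probe sets: tpi1.S probe set c, pgk1, eno1.L, eno1.S and pkm.S. Among probe sets that rose, that is 5 of 8 here and 1016 of 1591 on the whole array. Without NICD 1, 5 of the 17 were higher: pgk1, pkm.S, tpi1.S probe set c, pkm.L and ldhb.S. The share of all tested probe sets was then 9.32%. Without NICD 2 there were also 5: pgk1, pkm.S, eno1.L and tpi1.S probe sets c and d, against 5.34% of all tested. Without either NICD array the filter also dropped probe sets that were high in NICD explants alone, which gave part of the fall in the array's shares. Those shares fell with the full set of tested probe sets kept as well. The calls for pgk1, pkm.S and tpi1.S probe set c held in all 18 alternative settings run.

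**Figure D3:**
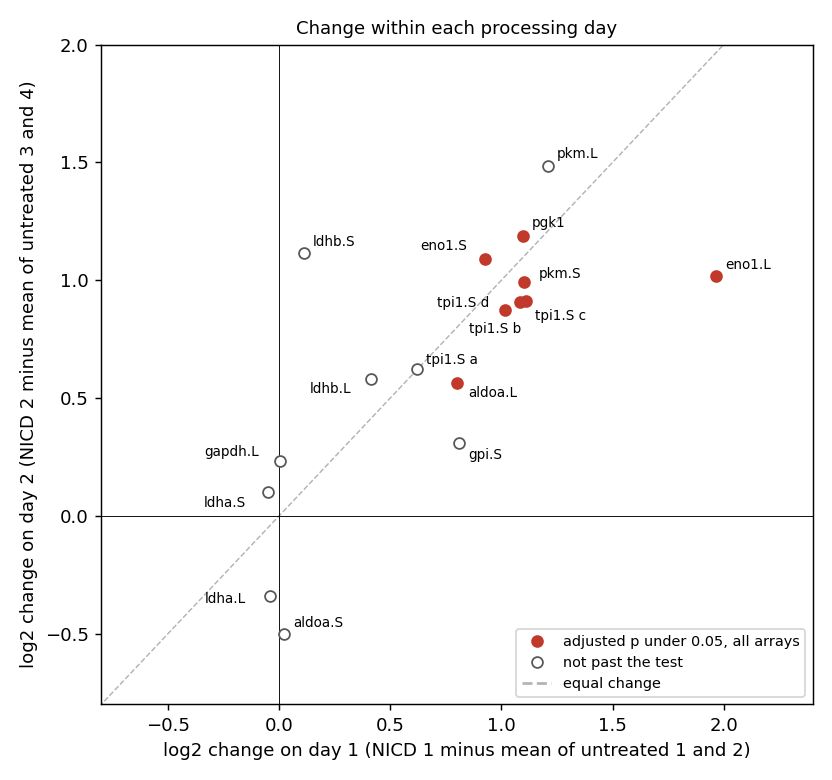
Log2 change of each tested glycolysis probe set on day 1 (horizontal) and day 2 (vertical), with filled red points for those past the test over all arrays and a dashed line of equal change. The red points lie in the upper right, near the line, except eno1.L, which changed by 1.96 on day 1 and 1.02 on day 2.

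Copies of 1 enzyme were compared by the difference of their log2 changes in an exact permutation test over the samples (2-sided), in which 15 regroupings allow no p below 0.0667, so none of the 6 pairs could pass. The change of aldoa.L exceeded that of aldoa.S by 0.92 (exact p = 0.200), and that of eno1.L exceeded that of eno1.S by 0.48 (exact p = 0.333). For pkm.L over pkm.S the difference was 0.30 (exact p = 0.467), for ldha.L over ldha.S -0.22 (exact p = 0.733) and for ldhb.L over ldhb.S -0.12 (exact p = 0.733). The change of ldhb.S exceeded that of ldha.S by 0.59 (exact p = 0.267). Adjusted over the 6 pairs, the exact p-values lay between 0.667 and 0.733. A difference between the copies, or between the heart and muscle types of lactate dehydrogenase, was therefore not shown, and the reverse was not shown either.

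Hexokinases and a phosphofructokinase, which act before aldolase, fell in NICD explants. Of 9 further genes tested, of glycolysis or of steps that feed or regulate it, 4 fell and 2 rose. In this list and those below, each copy (.L or .S) counts as 1 gene. Of all tested probe sets 16.2% were lower and 15.3% higher, and the share that rose here is near the latter. Hexokinase phosphorylates glucose as it enters the cell. The hk2.L signal was 273 and 268 in NICD explants, against 2349.8, 1685, 2054 and 2708 in untreated explants, a log2 change of -2.86 ± 0.24 (SE; adjusted p = 3.03e-05 in limma). The hk1.L signal was 264 and 109 in NICD explants, against 582, 856, 1100 and 921 in untreated explants, a change of -2.10 ± 0.34 (SE; adjusted p = 0.00126 in limma). In both, the NICD arrays were far below every untreated array. Phosphofructokinase is the main control point of glycolysis. The pfkp.L signal, of its platelet type, was 146 and 59.8 in NICD explants, against 693, 741, 698 and 754 in untreated explants, a change of -2.56 ± 0.28 (SE; adjusted p = 0.000109 in limma). The other forms did not pass: pfkp.S changed by -0.51 and pfkm.S, of the muscle type, by 0.15. Mannose phosphate isomerase, mpi.S, which feeds mannose into the pathway, also fell (-1.18). The aldolase aldoc.L rose by 0.81 and phosphoglucomutase pgm1.L, which links glycogen to glucose 6-phosphate, by 1.05; both calls ended without NICD 1, and that of aldoc.L also without NICD 2 or untreated 2, 3 or 4, under quantile normalization, with array weights, with no filter and with the replicate number as a block (over the alternatives, adjusted p up to 0.287 for aldoc.L and 0.152 for pgm1.L in limma). The calls for hk2.L, hk1.L, pfkp.L and mpi.S held in all alternatives run.

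Of 17 regulators of glycolysis and of pyruvate use, 5 were higher and 3 lower, against 15.3% higher and 16.2% lower of all tested probe sets; the share that was lower is near that of the array. The bifunctional enzyme pfkfb3 makes fructose 2,6-bisphosphate, the strongest activator of phosphofructokinase. The pfkfb3.S signal was 917.5 and 952 in NICD explants, against 60.3, 99.0, 201 and 203 in untreated explants, a log2 change of 2.59 ± 0.37 (SE; adjusted p = 0.000632 in limma). Pyruvate dehydrogenase kinases switch off the entry of pyruvate into the citric acid cycle. The pdk4.S signal was 1495 and 1163 in NICD explants, against 173, 61.1, 271 and 176 in untreated explants, a change of 2.86 ± 0.40 (SE; adjusted p = 0.00054 in limma). The kinase pdk1.L rose by 1.103, the prolyl hydroxylase egln3.L, which marks hypoxia-inducible factors for destruction, by 1.31, and pfkfb4.S by 0.72. Their copies pdk4.L (0.03) and pdk1.S (0.04) did not pass. The hypoxia-inducible factor epas1.S fell by 2.45 on the log2 scale, its partner arnt.L by 0.76 and txnip.L, which restrains glucose uptake, by 1.31. The other copy epas1.L (0.21) and hif1a.L (-0.10) did not pass. Without NICD 1, 3 of these genes were higher, and without NICD 2, 2 were higher and 1 lower; 1 was also lower without untreated 1 or untreated 3. The calls for pfkfb3.S, pdk4.S and epas1.S held in all alternatives run, and those for pdk1.L and egln3.L ended without either NICD array. The call for pfkfb4.S ended without NICD 1, NICD 2 or untreated 1, 2 or 3, under quantile normalization, with no filter and with the replicate number as a block. The call for txnip.L ended without NICD 2 or untreated 1 or 3, and that for arnt.L without NICD 2 or untreated 1, 3 or 4, with no filter and with the replicate number as a block.

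**Figure D4:**
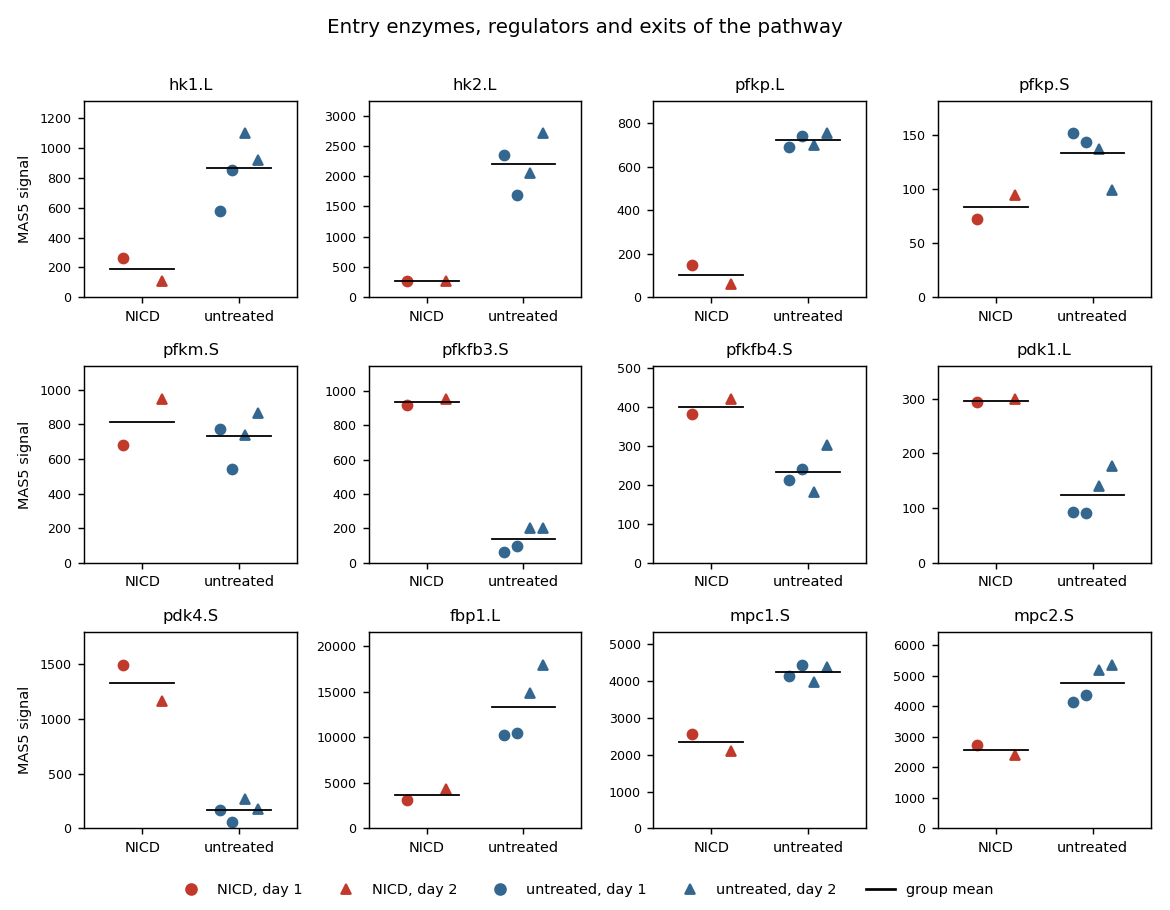
MAS5 signal (linear, vertical axes from 0) on each array of genes that feed, regulate or leave glycolysis, with NICD left and untreated right, circles for day 1, triangles for day 2 and bars for group means. The NICD arrays of hk1.L, hk2.L and pfkp.L lie below all untreated arrays, and those of pfkfb3.S and pdk4.S above them; the panels were chosen after the values were seen.

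Of 11 glucose, lactate and pyruvate transport genes tested, 5 fell and 0 rose (1 higher at an unadjusted p under 0.05 in limma), against 16.2% lower and 15.3% higher of all tested probe sets. Those that fell included bsg.L (-1.26), the basigin subunit that lactate carriers need to reach the membrane, and slc16a6.L (-0.96). Also lower were slc16a3.L (-0.75), an exporter of lactate, and a copy of each part of the mitochondrial pyruvate carrier, mpc2.S (-0.88) and mpc1.S (-0.85). The other copies mpc1.L (-0.42) and slc16a3.S (0.08) did not pass, nor did slc16a1.S (0.82). The glucose carrier slc2a1.L changed by 0.15 and slc2a2.L by -0.59, neither past the test (adjusted p = 0.0548 in limma for slc2a2.L). With the day as a block slc2a2.L passed (adjusted p = 0.0286 in limma), and 6 of the 11 were lower. Without NICD 2, 1 of the 11 was lower, bsg.L; without untreated 3, 3 were lower and 1 higher, and without untreated 1, 1 was higher. Among 11 genes of pyruvate dehydrogenase and gluconeogenesis, 2 rose and 2 fell, near the array's 15.3% higher and 16.2% lower. The dehydrogenase subunits dlat.L (1.06) and pdha1.S (0.90) rose, and both calls ended without NICD 2. The call for pdha1.S also ended without untreated 1, 3 or 4, with array weights, with no filter and with the replicate number as a block. The other copy pdha1.L (0.43) did not pass, nor did the subunits pdhb.L (0.35) and pdhb.S (0.08). Fructose 1,6-bisphosphatase, which runs the phosphofructokinase step backwards, fell: fbp1.L was 3094 and 4299.8 in NICD explants, against 10194, 10410.3, 14807 and 17964 in untreated explants, a change of -1.82 ± 0.26 (SE; adjusted p = 0.000661 in limma). The glucose 6-phosphate carrier slc37a4.L fell too (-1.43).

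Of 7 pentose phosphate genes, 0 rose and 0 fell in limma (0 higher and 2 lower at an unadjusted p under 0.05), with a median of -0.40; 1 was lower with the day as a block or without untreated 3. Of 17 citric acid cycle genes, dlst.S rose (0.68) and citrate synthase cs.L fell (-1.02), with a median of 0.17; dlst.S lost its call without NICD 1, NICD 2, untreated 1 or untreated 2, and with the day as a block 3 were higher and 2 lower. Of 5 glycogen genes both copies of glycogenin, the primer of glycogen synthesis, rose, gyg1.S by 2.06 and gyg1.L by 1.66, and 0 fell (0 lower at an unadjusted p under 0.05 in limma). Of 7 genes known to respond to hypoxia outside glycolysis, 3 fell, ca12.L (-3.31), ddit4.S (-1.43) and bnip3.S (-0.76), and the haem oxygenase hmox1.L rose (2.10). The counts of all these lists stand beside 15.3% higher and 16.2% lower of all tested probe sets. Carbonic anhydrase ca12 is also an ionocyte gene of the lists used. The call for bnip3.S ended without either NICD array and with the replicate number as a block.

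The mean log2(signal + 32) of the 17 tested probe sets was 9.92 and 9.72 in NICD 1 and 2, against 9.14, 9.27, 9.14 and 8.98 in untreated 1 to 4. Among other tested probe sets with 1 symbol, the 3 whose values followed this mean most closely over the 6 arrays were rassf7.L (Pearson's r = 0.998), the hes family gene hes4.L (r = 0.994) and dbn1.S (r = 0.994). The 6 arrays share the 2 groups, and r exceeded 0.9 for 8.81% of those probe sets.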

How the data were processed

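Targets were biotinylated cRNA made from 1 µg of total RNA for each of 6 samples, per the labels' protocols. The authors deposited probe set intensities on a linear scale, made with MAS5, per the submitters' processing notes (no version stated there). With the lowest and highest 2% removed, every array's mean was 499.7, so the deposited values were already scaled. Experiment files, which the authors also deposited, hold other information on stations and scanner, per the file headers; day, module and the single chip lot come from them.

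Of 15611 probe sets, 120 controls were left out; 9304 had 1 symbol, 195 several (not named) and 5992 none. Symbols were matched by gene number for 9227 probe sets with RefSeq's Xenopus_laevis_v10.1 table, all 19 members included, and 0 member symbols changed. Probe sets above their array's 40th percentile on at least 2 arrays were tested with limma 3.58.1 in R 4.3.3 (lmFit, eBayes with trend, 2-sided) on log2(signal + 32), a log2 scale computed here from the deposited intensities, with Benjamini-Hochberg adjustment over all 10368 and a threshold of 0.05. Tables were made in Python 3.11.15 (pandas 2.3.3, numpy 2.4.6) and drawn with matplotlib 3.10.9. The fit was tested on simulated data. The number of arrays limits the precision. Since no label states that replicates were separate experiments, p-values cover the spread between these samples alone, which may be technical.

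Members and the 15 gene lists were chosen with earlier results of these data known. Named are all members and every gene past the test in the lists of glycolysis, regulators, transport and pyruvate use. Of each other list up to 4 are named. Marker lists are given by summed signal and median log2 change. Genes named without passing the test were chosen after their values were seen. In the lists each copy (.L or .S) counts as 1 gene and is represented by its probe set of highest mean. Alternatives were pseudocounts of 1 and 80, median centring, quantile normalization, a filter at the 60th percentile or none, no trend, array weights, the replicate number or the day as a block, leaving out each array, an adjusted p under 0.10, a 2-fold minimum and probe sets without a shared-probe suffix. Added after seeing the data were 1 probe set per symbol, counting the probe set of both aldoa copies, and leaving out either NICD array while keeping the full set of tested probe sets. A lone NICD array is then taken to vary as the untreated arrays do.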

Additional observations from a re-analysis of the deposited data

Results flagged for a closer look

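In 3 of 76 untreated groups of 4 arrays checked, 1 array stood apart from the others by more than Dixon's 95% limit; chance alone gives about 1 in 20. For tpi1.S probe set a, untreated 4 was at 179 while the others were between 376 and 435 (gap over range 0.8292 on the log2 scale). The others were Notch targets near background: hes5.1.L, where untreated 2 was at 22.1 and the rest between 14.6 and 15.2 (0.9143), and hes5.2.L, where untreated 4 was at 37.8 and the rest between 2.2 and 5.3 (0.8784).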

How the results depend on the processing

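The count of 8 higher and 0 lower glycolysis probe sets was the same under quantile normalization, median centring, both other pseudocounts, no filter, the 60th percentile filter and no trend. It was 9 higher with the day as a block, with array weights and at an adjusted p under 0.10. It was 6 without shared-probe suffixes or with 1 probe set per symbol. Of the whole array 1591 probe sets were higher by the test used above, and 2115 with the day as a block. The array's count was also larger at an adjusted p under 0.10, and slightly smaller with array weights. A 2-fold minimum left 5 glycolysis probe sets and 1016 higher probe sets of the whole array. With 1 array left out the glycolysis count lay between 5 and 8, all higher; for the whole array it lay between 1413 and 3090, with 530 to 1547 higher and 883 to 1553 lower. With the full set of tested probe sets kept, the glycolysis count was 5 without either NICD array, and the whole array gave 756 higher and 927 lower, 1683 in all, without NICD 2. With 1 array left out, the differences of change were 0.38 to 1.47 for aldoa.L over aldoa.S, -0.018 to 0.98 for eno1.L over eno1.S, -0.58 to 1.18 for pkm.L over pkm.S, -0.47 to 0.23 for ldhb.L over ldhb.S and 0.20 to 0.97 for ldhb.S over ldha.S. The cause of these shifts was not tested, and leaving out an array also made the number of arrays smaller. The labels tie same-numbered samples by number alone; NICD 1 and untreated 1 also shared day 1, while NICD 2 and untreated 2 did not share a day. Deviations from the group means correlated at r = 0.20 for NICD 1 with untreated 1 and at r = -0.23 for NICD 2 with untreated 2. With 2 NICD arrays these deviations are mirror images, and r was above 0 for each NICD array with both untreated arrays of its day and below 0 with those of the other day. With the replicate number as a block, 6 glycolysis probe sets were higher, and fewer of the whole array were higher too. The calls of aldoa.L, tpi1.S probe set d and eno1.S ended, and pkm.L passed. Untreated arrays without a same-numbered NICD array add nothing to the change in that fit. The change rests on NICD 1 against untreated 1 and NICD 2 against untreated 2, the latter pair from different days. This block is thus a weak check of all calls set against it above. Low signals, as of pgam1, and 2 NICD arrays limit what could be called.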
